A study of Drosophila melanogaster and Nicrophorus vespilloides with 16 samples.

Results

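The genes described here encode the RNA exosome of Drosophila melanogaster. The 10 genes were taken by name (Rrp4, Rrp40, Csl4, Ski6, Rrp42, Rrp45, Rrp46, Mtr3, Dis3 and Rrp6), all 10 were matched by symbol in a RefSeq gene table, and they are 10 of 13922 protein-coding genes on 6 chromosome arms. The measurement was H3K4me3, trimethylation of lysine 4 of histone H3, mapped by chromatin immunoprecipitation with sequencing. A summit is the single base of highest enrichment in a called peak, and every summit within 1 kb of either annotated end of an exosome gene was collected.

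The RNA exosome is the main enzyme that degrades RNA from its 3′ end, in the nucleus and in the cytoplasm, and it also trims ribosomal and other structured RNA precursors. In animals a ring of proteins related to the bacterial phosphorolytic nuclease RNase PH, closed on one side by a cap of RNA-binding proteins, forms a channel with no catalytic activity of its own. Cutting is done by attached ribonucleases, Dis3 and, in the nucleus, Rrp6. H3K4me3 is a mark of nucleosomes just inside the starts of active genes, and genes that every cell uses usually carry it.

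The samples were 4 libraries of wild-type larvae of the Oregon-R strain, each from 30 third-instar animals, with no treatment or genotype to compare. Per the labels' protocols, chromatin was fixed in 1% formaldehyde and captured on a solid-state filter in place of beads. The same series holds 4 libraries of beetle brain and 8 input libraries, which were not used here. Whole larvae mix many tissues, so fewer cells with the mark and less of the mark per cell cannot be told apart, and no tissue marker was measured. Nothing in the labels says whether the 4 pools of larvae were raised apart, so the spread over replicates may be in part technical.

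Fly replicates 1 to 4 held 3518, 4969, 5236 and 5313 summits, with median scores of 5.97, 8.83, 15.2 and 24.7. The score is the authors' own, a −log10 value of significance, and it grows with sequencing depth, which is unknown. Each score was therefore turned into a percentile among the summits of its own replicate, with 0 where a gene had no summit. Because the libraries form 1 group, there was no contrast between conditions and no test was made. For a pair of genes, an exact sign-flip test over 4 replicates cannot reach the threshold of 0.05.

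The exosome genes were almost all marked in these larvae. A gene was called marked when at least 3 of 4 replicates had a summit no farther than 1 kb from one of its ends. By this rule 9 of 10 exosome genes were marked, beside 43.9% of all protein-coding genes. The same 9 genes had a summit in 4 of 4 replicates, beside 33.7% of all genes. The exception was Rrp45, with a summit in 2 replicates. Per replicate, 9, 10, 9 and 10 exosome genes had a summit, beside 35.8%, 43.8%, 46.6% and 48.6% of all genes.

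Many of these summits lay in a neighbouring gene. A summit inside the exosome gene itself, within 1 kb of an end, was present in at least 3 replicates at 6 of 10 genes, beside 31.1% of all genes. These were Rrp4, Rrp40, Csl4, Rrp46, Mtr3 and Rrp6, while Ski6, Rrp42, Rrp45 and Dis3 had one in 2 replicates each. Of 59 distinct summits near the exosome genes, 30 lay inside the exosome gene and 29 outside it, and each of the 29 lay inside another gene.

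Exosome genes are short and closely packed, which the list did not use. Their lengths ran from 942 to 3816 bp with a median of 1172 bp, beside a median of 2163 bp over all protein-coding genes. All 10 had an end of another coding gene within 500 bp of one of their own ends, beside 71.0% of all genes. Among the 6971 genes at most 4 kb long with such a close neighbour, limits chosen after the values were seen, 56.6% were marked near an end and 40.1% inside the gene.

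**Figure D1:**
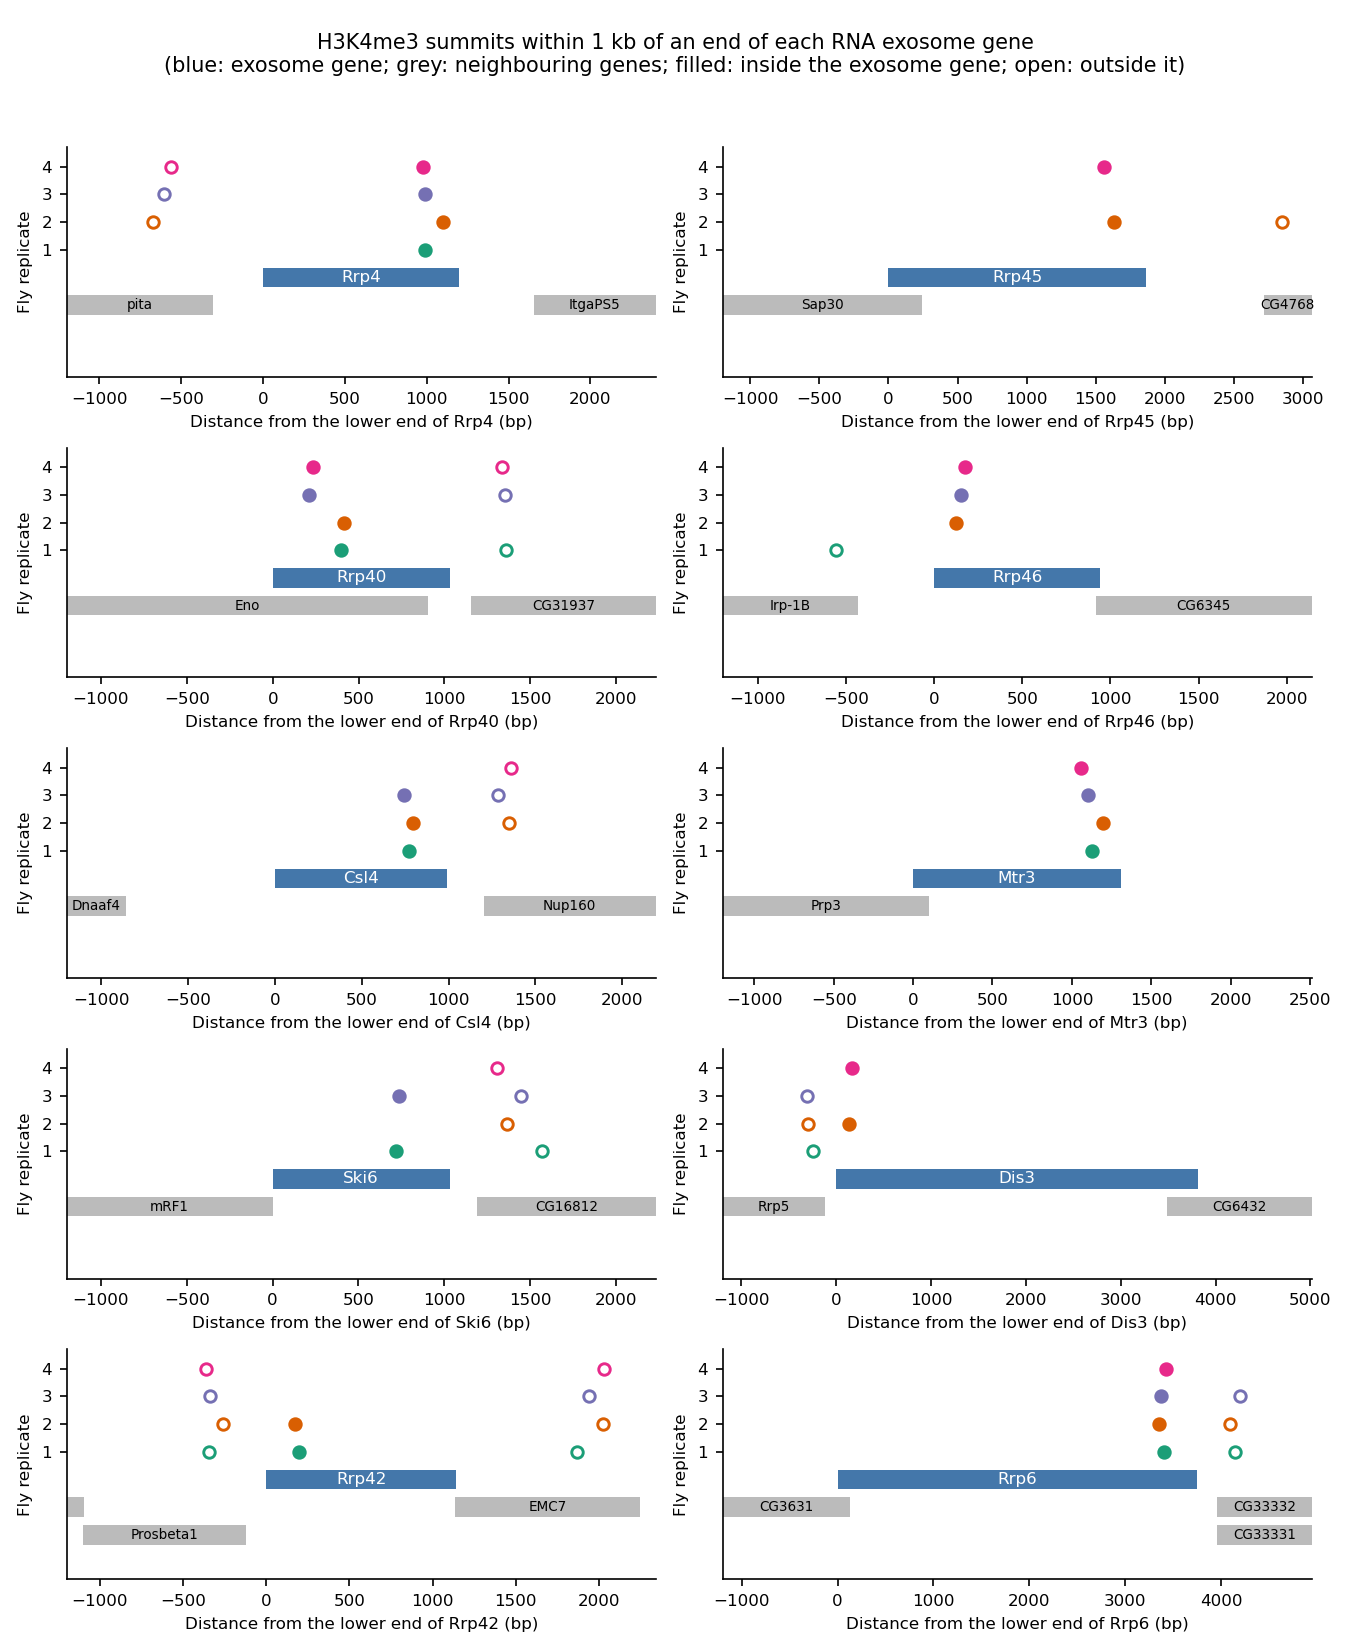
Positions of all H3K4me3 summits within 1 kb of an end of each exosome gene, as the distance in bp from the end with the lower coordinate, in fly replicates 1 to 4 (rows and colours). Blue bars are exosome genes, grey bars neighbouring genes, filled points summits inside the exosome gene and open points summits outside it; the filled points of each gene gather near 1 of its ends.

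The cap subunits bind RNA at the entry of the channel, and all 3 of their genes were marked. Rrp4 encodes a cap protein with S1 and KH domains and spans 2R 23555018 to 23556217. Its summits inside the gene had percentiles of 8.12, 18.6, 52.1 and 27.5 in replicates 1 to 4, at positions 97 to 220 bp from the higher end. Another site stood 561 to 670 bp beyond the other end, inside pita, which encodes a zinc-finger protein of insulators. That site had percentiles of 98.0, 49.4 and 60.5 in replicates 2, 3 and 4 and was absent in replicate 1. The highest Rrp4 values, those of replicates 2 and 4, came from the pita site, and the summits inside Rrp4 lay near or below the middle of the ranks.

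Rrp40 encodes the other cap protein with S1 and KH domains and spans 2L 1728732 to 1729762. Its percentiles were 92.4, 66.5, 47.4 and 66.3 in replicates 1 to 4, a mean of 68.1 ± 18.5 (SD, n = 4), and in every replicate the highest summit lay inside the gene. Rrp40 overlaps Eno, which encodes the glycolytic enzyme enolase, and all 4 of these summits lay where both genes run. They spread over 202 bp, the widest spread of any inside site of an exosome gene. On its other side a summit inside CG31937 had percentiles of 91.6, 8.22 and 34.7 in replicates 1, 3 and 4. Which of the overlapping genes carries the mark cannot be told apart from positions alone.

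Csl4 encodes the third cap protein and spans 2L 11122574 to 11123567. Its summit inside the gene had percentiles of 17.4, 51.7 and 40.1 in replicates 1 to 3 and was absent in replicate 4. Facing it lay a summit inside Nup160, which encodes a scaffold protein of the nuclear pore, with percentiles of 53.9, 21.1 and 41.7 in replicates 2 to 4 and none in replicate 1. Csl4 thus counted as marked in 4 replicates, through its own side alone in replicate 1 and through the Nup160 side alone in replicate 4. The sites were 551 bp apart in replicate 2 and 536 bp apart in replicate 3.

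The ring, which lines the channel, held the highest and the lowest mean percentile of the exosome genes when summits of neighbours were counted, 92.3 and 32.4. With summits inside the gene alone, its genes ran from 20.2 to 36.7 and those of the cap from 26.6 to 68.1. The value of 68.1 was that of Rrp40 alone, in its overlap with Eno. The other cap genes, Rrp4 and Csl4, lay within the range of the ring, so these ranges do not rank the cap above the ring. Ski6 encodes the fly Rrp41 and spans 2L 13221397 to 13222429. The highest summit near it had percentiles of 72.7, 94.4, 93.9 and 47.1, all at a site inside the neighbour CG16812. Inside Ski6 itself a summit was found in replicate 1 at 16.2 and in replicate 3 at 64.6. In both of these replicates the CG16812 site ranked higher.

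Rrp42, at 2R 16014908 to 16016050, had the highest mean percentile of the exosome genes. Its percentiles were 84.8, 94.2, 98.5 and 91.6 in replicates 1 to 4, a mean of 92.3 ± 5.74 (SD, n = 4), at or above the mean of 98.9% of all protein-coding genes. All 4 summits lay inside Prosbeta1, which encodes a catalytic subunit of the proteasome core. Their scores, which are not scaled between libraries, were 9.12, 17.4, 37.4 and 46.0. On the other side of Rrp42 a site inside EMC7, which encodes a subunit of the endoplasmic reticulum membrane complex, had percentiles of 57.0, 75.2, 80.5 and 88.6. Rrp42 itself held a summit in replicate 1 at 63.6 and in replicate 2 at 24.1, and none in replicates 3 and 4. The 2 inside summits lay within 23 bp of each other.

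Rrp45, at X 16789405 to 16791266, was the one exosome gene that was not marked. It had a summit inside the gene at a percentile of 85.0 in replicate 2 and 44.6 in replicate 4, and none in replicates 1 and 3. The mean with absence as 0 was 32.4 ± 40.9 (SD, n = 4), the lowest mean and the widest spread of the 10 genes. The mean was 14.9 without replicate 2 and 43.2 without replicate 1 or without replicate 3. In those last 2 cases it was above Mtr3, at 35.2 and 40.7, and so no longer the lowest. The distance limit mattered at the neighbour CG4768, whose summit lay 986 bp from Rrp45 in replicate 2, just inside the limit, and 1079 bp from it in replicate 4, just outside. Its values were 55.9 in replicate 2 and 60.9 in replicate 4.

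Rrp46, at 3R 10413301 to 10414242, is the shortest exosome gene. Its percentiles were 45.4, 38.6, 36.9 and 40.4, a mean of 40.3 ± 3.69 (SD, n = 4), the narrowest spread of the 10. The values came from more than one site. In replicates 2 to 4 the summit lay 122 to 175 bp inside Rrp46, and in replicate 1 the nearest summit lay 556 bp outside it, in Irp-1B, which encodes an iron regulatory protein of the aconitase family. Rrp46 itself had no summit in replicate 1.

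Mtr3, at 3L 19912405 to 19913715, was marked by its own summit alone. It had 1 summit in each replicate, 113 to 250 bp inside the higher end, at percentiles of 41.3, 41.9, 24.6 and 39.0. The mean was 36.7 ± 8.17 (SD, n = 4) with no summit of a neighbour within 1 kb of either end. The scores were 5.43, 7.96, 9.51 and 20.3. Mtr3 was thus below the middle of the ranks in each replicate.

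The genes of both ribonucleases were marked in 4 replicates. Dis3 encodes a processive exonuclease that also has an endonuclease site, and spans 3R 24333433 to 24337248. Its percentiles were 47.6, 66.8, 57.1 and 84.4, a mean of 64.0 ± 15.7 (SD, n = 4). In replicates 1 and 3 the summit lay inside the neighbour Rrp5, which encodes a factor of ribosomal RNA processing, and in replicate 4 it lay inside Dis3. Replicate 2 held both, 428 bp apart, at 39.6 on the Rrp5 side and 66.8 on the Dis3 side. Neither side was thus found in every replicate, although the gene pair was.

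Rrp6 encodes the exonuclease of the nuclear exosome and spans 3R 14882498 to 14886246. A summit 326 to 396 bp inside its higher end was found in every replicate, at 21.1, 82.8, 29.9 and 75.8. Across the gap, CG33331 and CG33332 overlap, and a summit inside both had percentiles of 89.2, 81.0 and 36.3 in replicates 1 to 3 and was absent in replicate 4. The sites were 738 bp apart in replicates 1 and 2 and 817 bp apart in replicate 3. Rrp6 and Dis3 are the longest exosome genes, and their opposite ends carried no summit within 1 kb.

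**Figure D2:**
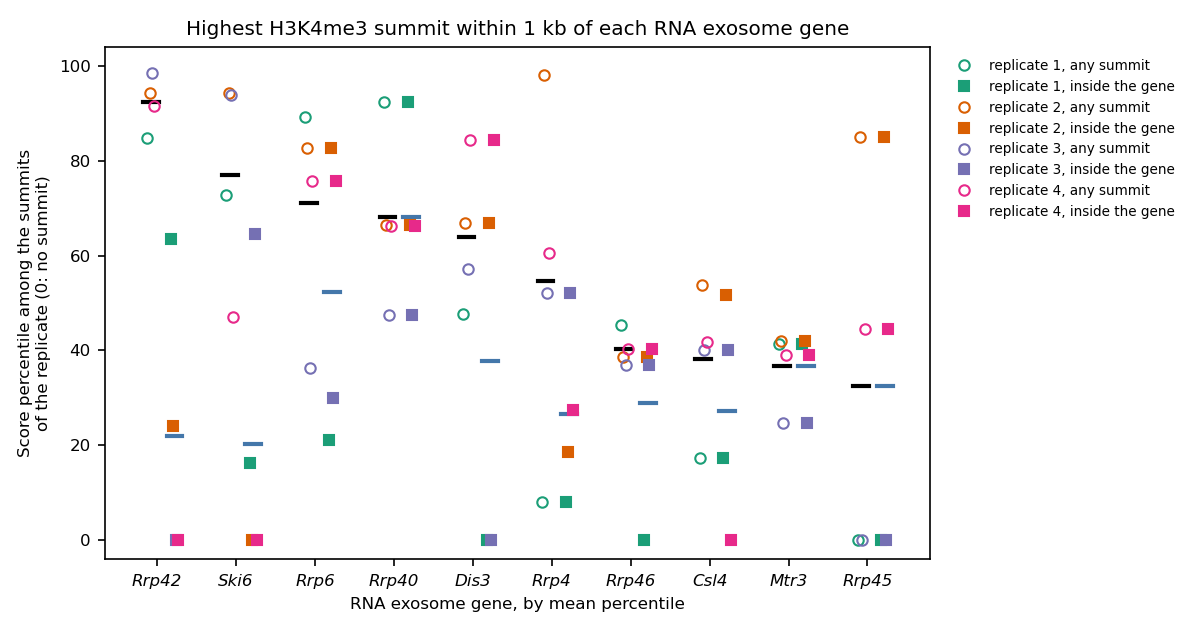
Score percentile of the highest H3K4me3 summit within 1 kb of each exosome gene (open circles, black bars for the mean of 4 replicates) and of the highest summit inside the gene (squares, blue bars for the mean), with 0 where there was no summit; error is shown by the 4 points per gene. Rrp42 and Ski6 lead with summits of neighbours included and are the lowest by mean inside the gene, at 21.9 and 20.2.

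Over all 10 genes the median of the mean percentiles was 59.3, with a range from 32.4 to 92.3. The median was 0.0735 over all protein-coding genes and 34.1 over the short genes with a close neighbour described above. Of the 13922 protein-coding genes, 6952 had no summit within 1 kb of an end in any replicate, which sets the low median. Among genes with a summit, the fullest bins of 10 percentile points were 50 to 60 (994 genes) and 60 to 70 (1147 genes). A median of 59.3 was thus ordinary for a gene with a summit. In order of the mean, the genes were Rrp42, Ski6 (77.0 ± 22.4), Rrp6 (71.0 ± 23.8), Rrp40, Dis3, Rrp4 (54.7 ± 36.9), Rrp46, Csl4 (38.3 ± 15.2), Mtr3 and Rrp45. No gene in this order differed from the next by more than 1 SD of the difference over the 4 replicates. Rrp42 was above Ski6 in 3 of 4 replicates, by 15.2 ± 20.1 percentile points, and Rrp40 was above Dis3 in 1 of 4, although its mean was higher by 4.14 points. By role the median was 54.7 for the cap, 40.3 for the ring and 67.5 for the ribonucleases, groups of 3, 5 and 2 genes.

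With summits inside the gene alone, the order changed. The median over the 10 genes was 30.7, with a range from 20.2 to 68.1. It was 0 over all protein-coding genes and 0.861 over the short genes with a close neighbour. Of the 13922 protein-coding genes, 5728 had an inside summit in any replicate, which sets the low median. Rrp40 led at 68.1, in its overlap with Eno, followed by Rrp6 at 52.4 ± 31.4 and Dis3 at 37.8 ± 44.2. Ski6, at 20.2 ± 30.6, and Rrp42, at 21.9 ± 30.0, moved from the top to the bottom.

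At each of the 10 genes all inside summits were nearest to the same end, as they were at 95.3% of the 5139 protein-coding genes with 2 or more inside summits. Ski6, Rrp42, Rrp45 and Dis3 had 2 inside summits each. The end was the lower end for Rrp40, Rrp42, Rrp46 and Dis3 and the higher end for Rrp4, Csl4, Ski6, Rrp45, Mtr3 and Rrp6. The gene table carries no strand, so that end was not compared with the transcription start. The median distance from that end ran from 150 bp in Dis3 to 352 bp in Rrp6, with a median of 216 bp over the 10 genes, beside 217 bp over the 5728 protein-coding genes with an inside summit. Over replicates the inside summits of one gene spanned 19 bp in Ski6 and 202 bp in Rrp40, the extremes.

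Summits at most 250 bp apart were chained into regions to see which exact sites recurred. The exosome genes had 20 regions nearby, and 7 of these recurred in all 4 replicates, 7 in 3, 5 in 2, while 1 was seen once. Over all 7030 regions of the fly, 34.6% recurred in all 4 replicates and 25.2% were seen once. The 7 recurrent regions were near Rrp4, Rrp40, Ski6, Rrp42, Mtr3 and Rrp6, and in 4 of these (Rrp4, Rrp40, Mtr3 and Rrp6) the recurrent region lay in the exosome gene. Csl4, Rrp46 and Dis3 had a summit in all 4 replicates without any 1 region found in all 4.

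In 17 cases at 8 genes a replicate held a summit inside the exosome gene and another outside it within the same 1 kb limits. They gave 19 pairs, since the inside summits of Rrp42 in replicates 1 and 2 were each paired with a Prosbeta1 and an EMC7 summit. The outside summit ranked higher in 10 of the 19 pairs. At Rrp40 the inside summit ranked higher in each of the 3 replicates with both, and at Ski6 the outside summit did in each of 2. At Rrp4, Csl4 and Rrp6 the order changed between replicates. The spacing ran from 428 bp at Dis3 to 1850 bp at Rrp42, with a median of 853 bp.

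**Figure D3:**
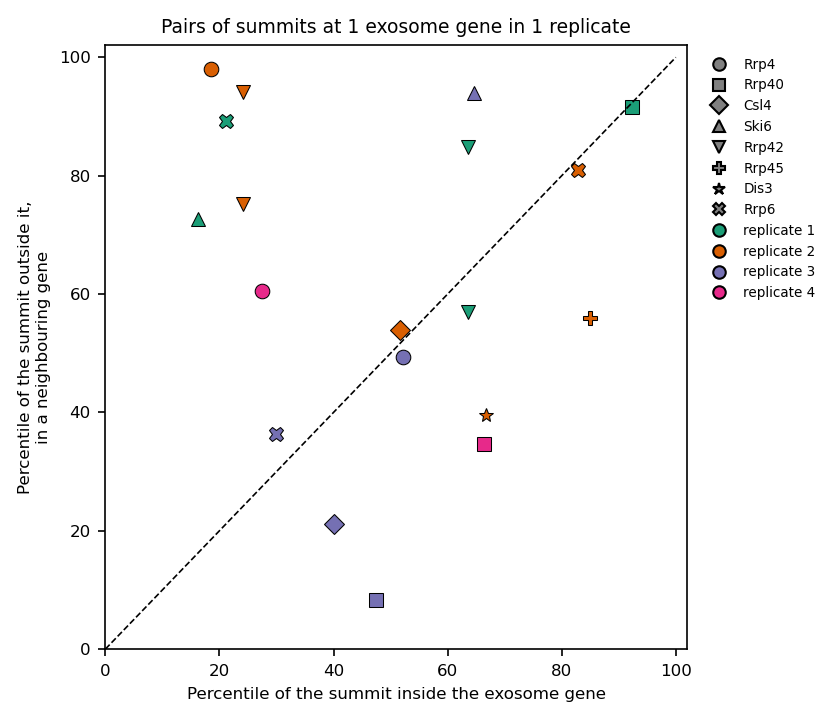
Percentile of the summit inside an exosome gene (x axis) against that of a summit outside it in the same replicate (y axis), for the 19 pairs at 8 genes, with shapes for genes and colours for replicates. Of the pairs, 10 lie above the dashed line of equal percentiles, where the neighbour's summit ranked higher.

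The neighbours were themselves marked. Within 1 kb of the highest summits of the exosome genes lay the ends of 15 other genes, all protein-coding, and all 15 were marked; a neighbour that shares the summit is marked by it, so this count is not independent of the exosome genes. A summit inside the neighbour itself, within 1 kb of an end, was found in at least 3 replicates at 10 of the 15, beside 31.1% of all genes. The neighbours were picked for an end near a called summit, so this count is not independent either. Prosbeta1 at 92.3 ± 5.74, CG16812 at 77.0 ± 22.4 and Eno at 68.1 ± 18.5 had the highest percentiles for summits inside the gene. Dcp-1, which encodes an effector caspase, ItgaPS5, an integrin subunit gene, and CG8389 had no summit inside the gene within 1 kb of an end and were near the sites in pita, Rrp4 and Prosbeta1. The other neighbours were CG31937 beside Rrp40, CG6345 and Irp-1B beside Rrp46, Prp3 beside Mtr3, Nup160, Rrp5, CG33331, CG33332 and pita. Of the 59 summits near exosome genes, 93.2% were no farther than 1 kb from an end of another protein-coding gene as well. Among all summits of a replicate within 1 kb of a coding gene end, 80.7% ± 2.48 (SD, n = 4) were near more than 1 coding gene. These shares are not like for like, since a summit near several genes has more chances to fall near a listed gene. The gap is therefore not read as extra sharing at exosome genes.

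Most other genes of the RNA decay machinery were marked too, and a few had no summit within 1 kb of an end. Of 47 genes in 6 lists of cofactors and other decay enzymes, 42 (89.4%) were marked and 39 (83.0%) were marked inside the gene, beside the 43.9% and 31.1% of all genes given above. The median percentile of these genes was 59.4, next to 59.3 for the exosome genes, and 46 of the 47 had an end of another coding gene within 500 bp. Both medians count summits of neighbours. With summits inside the gene alone, 6 of 10 exosome genes were marked and their median was 30.7. An inside median of the other decay genes is not given here. The other decay genes are longer than the exosome genes, with a median of 4798 bp.

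Cofactors of the nuclear exosome unwind, tail or hand over its substrates, and 9 of 11 were marked, with a median percentile of 48.9. Mtr4, the RNA helicase that feeds the exosome, had the highest mean of these, 87.0 ± 12.5 (SD, n = 4), from 98.0, 96.0, 82.7 and 71.3 in replicates 1 to 4. Trf4-1, a noncanonical poly(A) polymerase that tags nuclear RNA for decay, was marked in 3 replicates at a mean of 53.5 ± 40.4. Its paralog Trf4-2 and CG4622 had no summit within 1 kb of an end in any replicate. With the whole gene span searched, 10 of the cofactors were marked. Trf4-2, at 1870 bp, is too short to hold a summit farther in, so the added gene was CG4622. The Ski complex, which feeds the cytoplasmic exosome, and factors that rescue stalled ribosomes had 4 of 4 marked, from tst, the fly Ski2-like helicase, at 60.6 ± 31.4 to HBS1, a GTPase of ribosome rescue, at 92.4 ± 9.07.

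Other exonucleases that work from the 3′ end had 3 of 5 marked and the lowest median, 26.8. Nbr (Nibbler), which trims microRNAs, had 77.2 ± 19.1. Dis3l2, a relative of Dis3 that degrades uridylated RNA, had a summit in replicates 1 and 2 alone, at 56.1 and 51.2, and Rexo5 had none. Decapping and decay from the 5′ end had 9 of 10 marked with a median of 60.5. LSm1, of the ring that binds deadenylated messenger RNA, led at 90.8 ± 6.98, and the helicase me31B, a repressor of translation, was not marked, with 4.47 in replicate 3 and 46.5 in replicate 4.

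All 11 deadenylation genes were marked, in 4 replicates each, with the highest median of the longer lists, 71.0. They ran from Not10, with 25.6, 39.1, 49.0 and 55.4 in replicates 1 to 4, to Not11 at 96.3 ± 2.93, both subunits of the CCR4-NOT complex. All 6 genes of nonsense-mediated decay were marked too, at a lower median of 35.8, from Smg5 at 16.3 ± 16.3 to Upf2 at 64.4 ± 27.5. These lists hold 2 to 11 genes each, and differences between their medians were not tested.

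**Figure D4:**
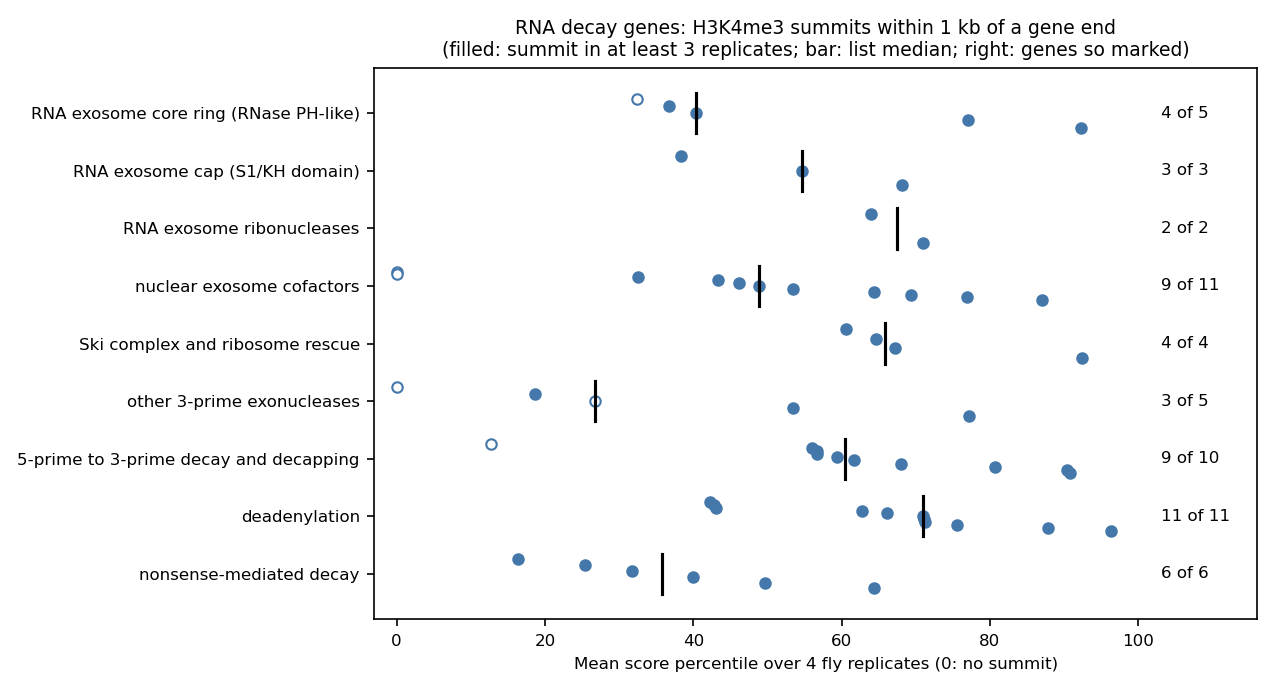
Mean score percentile over 4 fly replicates of each gene in the RNA decay lists (points, filled where a summit was found in at least 3 replicates), with the list median as a bar and the number of genes so marked at the right. The 10 exosome genes fall between 32.4 and 92.3, within the range of the other lists. The open points at 0 are Trf4-2, CG4622 and Rexo5, with no summit within 1 kb of an end.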

How the data were processed

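The files used were the summit lists of the 4 fly ChIP libraries. The lists were made per sample by the authors, and MACS2, Picard 2.17.11, SAMtools 1.9, BWA 0.7.17, cutadapt 1.16 and FastQC 0.11.7 are named, with no order, per the submitters' processing notes. For MACS2 neither version nor settings nor use of the input is stated in these sources, and no genome build is named. The deposited score is a −log10 significance by its layout and range, and whether of a p-value or of a q-value is not stated; the lowest, 1.31 to 1.36, are close to 1.301, which is −log10 of 0.05. Depth is unknown, so a missing summit can be a missed peak and no counting interval was computed.

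Positions are 1-based. Gene spans came from RefSeq (Release 6 plus ISO1 MT). The build was checked on the data: 57.1% to 88.0% of the summits of an arm lay within 500 bp of a gene end of that arm, against no more than 19.6% with genes of another arm and 28.8% when shifted by 10 kb. A single summit, in replicate 3, lay off the 6 arms and stayed in the percentiles. Where replicates disagree, the mean includes absence as 0.

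The decay lists were matched by symbol, then by symbol ignoring case, then by synonym; Ski3 was not matched, and Smg1 and nonC are 1 gene. The genes named are all members, the genes with an end within 1 kb of their highest summits, and from each other list the highest, the lowest and the unmarked genes; Trf4-1 and the genes in the closing section were chosen after their values were seen. Members and lists were chosen with earlier results of these data known. The marking step was run on simulated summits planted inside genes and within the 1 kb window. Their marking followed from the planting, so this checked the code and not the rule. The alternatives were other windows, score limits, list lengths, numbers of replicates and rules for the owner of a summit. Exons, introns, strand and sequence were not used here, so the planned search of promoter motifs was not run. Software was matplotlib 3.10.9, numpy 2.4.6 and pandas 2.3.3 under Python 3.11.15.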

Additional observations from a re-analysis of the deposited data

Results flagged for a closer look

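In each of 20 sets of 4 replicate values (10 genes, with summits near an end or inside the gene), the highest and lowest replicate were compared with the rest by the gap to the nearest value divided by the range, and a ratio above Dixon's critical value was picked out. For independent, normally distributed values chance picks out about 1 in 20 such sets. These values are ranks with absence as 0, and some sets are the same, so that rate need not hold here. Rrp46 in replicate 1 stood apart for summits inside the gene, with a percentile of 0 (no summit) where replicates 2 to 4 had 38.6, 36.9 and 40.4. Mtr3 in replicate 3 stood apart at 24.6, where the other replicates had 41.3, 41.9 and 39.0; it appears in both sets, since every Mtr3 summit lay inside the gene.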

How the results depend on the processing

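The count of 9 marked exosome genes was 9 or 10 with scores of at least 5, equal lists of 3518 summits, windows of 500 bp or 2 kb, a search of the whole gene span, other numbers of replicates, and any 1 replicate left out (9 to 10; Rrp45 was counted without replicate 1 or without replicate 3). Of all genes, 41.3% were marked with scores of at least 5, 36.6% with equal lists, and 36.1% or 49.2% with windows of 500 bp or 2 kb. The whole span gave 44.9%, at least 2 replicates 47.0%, all 4 replicates 33.7%, and 1 replicate left out 44.1% to 46.8%. Each setting that gave 10 exosome genes also called more than 43.9% of all genes. The exosome count was 6 when the summit had to lie inside the gene or have its nearest coding end there, beside 31.1% and 30.5% of all genes. A window of 250 bp, which drops every summit farther out, gave 5 genes, a median percentile of 26.9 and 20 of the other decay genes, beside 18.9% of all genes. The median percentile, 59.3, fell to 30.7 for summits inside the gene; for summits inside the exosome gene and no other gene, a rule added after seeing the data, the count was 5 and the median 28.1, since summits of neighbours are left out by construction. Without 1 replicate the median was 52.0 to 62.5 and the decay count 43 in each case. With the whole gene span searched the decay count was 44. The distance of the highest summit from the nearest end had a median of 305 bp (295 to 318 without 1 replicate) and was 262 bp for the nearest summit. Of 110 alternatives for single genes 93 moved by less than 1 SD, and of 84 for single decay lists 78 stayed within 1.5 times. The SD was each gene's own over replicates, so a gene with a wide spread seldom counted as moved. Rrp4 went from 54.7 to 26.6 with a window of 500 bp, which is less than its SD of 36.9. The 93 are therefore not read as stability. Distances to an annotated start were not run. No paired analysis was possible because only 1 group entered and no groups were compared. Unknown depth limits all absences.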

Other observations

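Beyond the 1 kb limit, several exosome genes stood next to further recurrent sites, looked up after the main values were seen. Mtr3 lay 1496 to 1592 bp from a site inside Rpn1, which encodes a subunit of the proteasome regulatory particle, with percentiles of 88.0, 87.6, 99.9 and 81.7 in replicates 1 to 4. These were above the Mtr3 summit in all 4 replicates. Rrp46 lay 1450 to 1666 bp from a site inside CG6345 found in 4 replicates, at 85.8, 30.0, 71.9 and 56.4. Csl4 lay 2395 to 2439 bp from a site inside CG6230 found in 4 replicates, at 47.6, 93.9, 92.5 and 59.0.

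Rrp45, the gene with a summit in 2 replicates, stood between summits of its neighbours. A site inside Sap30, which encodes a subunit of the Sin3 histone deacetylase complex, lay 1282 to 1436 bp from Rrp45 in 4 replicates, at percentiles of 48.8, 46.4, 62.6 and 49.3. Inside CG4768 a summit was found in every replicate, within 1 kb of Rrp45 in replicate 2 and 1079 to 1490 bp away in the others. By the chaining at 250 bp these summits did not form 1 site found in all 4 replicates. The replicates without a summit in Rrp45, 1 and 3, thus had summits on both sides of it.

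Eno held a site of its own away from the overlap with Rrp40, 1176 to 1341 bp from Rrp40, in replicates 2 to 4 at 68.3, 39.1 and 38.2. In replicates 3 and 4 it ranked below the summit in the overlap, at 47.4 and 66.3, and in replicate 2 it ranked above it, at 68.3 beside 66.5.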
